A study of Mus musculus with 336 samples.

Results

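Skin fibroblasts and slices of adult liver from wild-type (WT) mice were compared gene by gene. By genotype and tissue as labelled, 24 WT fibroblast columns and 24 WT slice columns were taken, which are 48 of the 120 expression columns in the series. Both tissues came from the C57BL/6 strain. Confluent fibroblasts (MSF) and liver pieces of about 500 micron on membrane discs received 100 nM dexamethasone for 15 min, a glucocorticoid pulse that brings the clocks of different cells into step. The first harvest (CT00) followed after 48 h, and further ones came at intervals of 3 h up to CT69, over 3 days. Fibroblasts and slices of genotype Bmal1-/- (KO), handled in the same way, serve as columns that the WT comparison did not use. Age was given as adult for the liver and as not applicable for the fibroblasts, and the labels do not state how many mice or fibroblast isolates stand behind a group. A shorter course of WT and Bmal1-/- liver, with 3 replicates at T00, T06, T12 and T24, is used for levels only, and the time from dexamethasone to its T00 is not given.

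Hepatocytes, the main cells of the liver, secrete most plasma proteins, clear ammonia through the urea cycle, make bile acids and glucose, and modify drugs and toxins. They do so under transcription factors that include HNF4 and the FOXA family. Fibroblasts build connective tissue from collagens, fibronectin, proteoglycans and elastic fibres, and they keep a pattern of Hox gene activity that reflects where in the body they arose. A liver slice also holds macrophages (Kupffer cells), sinusoidal endothelium, stellate cells and bile duct cells.

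Levels are FPKM, a length- and depth-normalized measure of transcript abundance, after all 48 columns were rescaled together. A difference is the median of log2(FPKM + 1) over the 24 fibroblast columns minus that over the 24 slice columns, and the added 1 makes it smaller than the true log ratio for genes of low level. The authors normalized each tissue's table on its own, so tissue and table cannot be told apart, and no test was run across them. A gene was called only where the medians differed by at least 3, which is 8-fold on that scale. The 24 columns of a tissue are successive times of 1 course, so their range includes change over time.

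Columns of WT fibroblasts correlated with each other at 0.965 to 0.977 and those of WT slices at 0.927 to 0.981, with the slice columns CT66 and CT69 standing lowest. FPKM carry no read counts, so depth is unknown. In WT fibroblasts 351 values in 87 genes were marked by the authors as not estimated properly and were taken as missing. No such marks were used for slices, so failed estimates may remain there as zeros. Among genes with a median of 5 FPKM or more, 204 held a zero in slices and 220 in fibroblasts. Defining markers went with the labels: Alb, Ttr, Apoa1 and Hnf4a, of hepatocytes, had medians from 42.9 to 4791 FPKM in slices and from 0 to 0.0735 FPKM in fibroblasts. Cps1, the first enzyme of the urea cycle, was low in slices at 4.24 FPKM. The fibroblast markers Col1a1, Col1a2, Col3a1, Pdgfra, Pdgfrb, Thy1, Twist1 and Prrx1 had medians from 66.4 to 7092 FPKM in fibroblasts, each above every slice column. None of 10 lymphocyte genes reached a mean of 1 FPKM in either tissue. Arntl, the targeted gene of the KO, had 8.19 to 11.2 FPKM in WT and 4.70 to 6.51 FPKM in KO fibroblasts, and 3.36 to 8.16 FPKM in WT and 3.08 to 6.95 FPKM in KO slices. The deleted part is not given in the sources used here, so these gene-level values do not check the labels.

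A mean of 1 FPKM or more in either tissue was found for 17028 genes (the kept genes), of which 648 (3.81%) were higher in fibroblasts and 791 (4.65%) were higher in slices. For 531 of the first and 710 of the second, the 24 columns of one tissue lay wholly above those of the other. Whatever the size of the difference, every fibroblast column was above every slice column for 23% of genes, and the reverse held for 23.9%. The median difference over all genes was 0. Scaling the columns on ribosomal protein genes moved it to 0.71 and gave 1146 and 550 calls, so that the share of calls on the fibroblast side went from 45.03% to 67.6%. Under that scaling 19 of the 195 named genes changed sign, none with a difference beyond 0.88. It moved differences toward the fibroblast side, so slice-side differences of that size have no settled direction. Small differences on the fibroblast side are not checked by it.

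**Figure D1:**
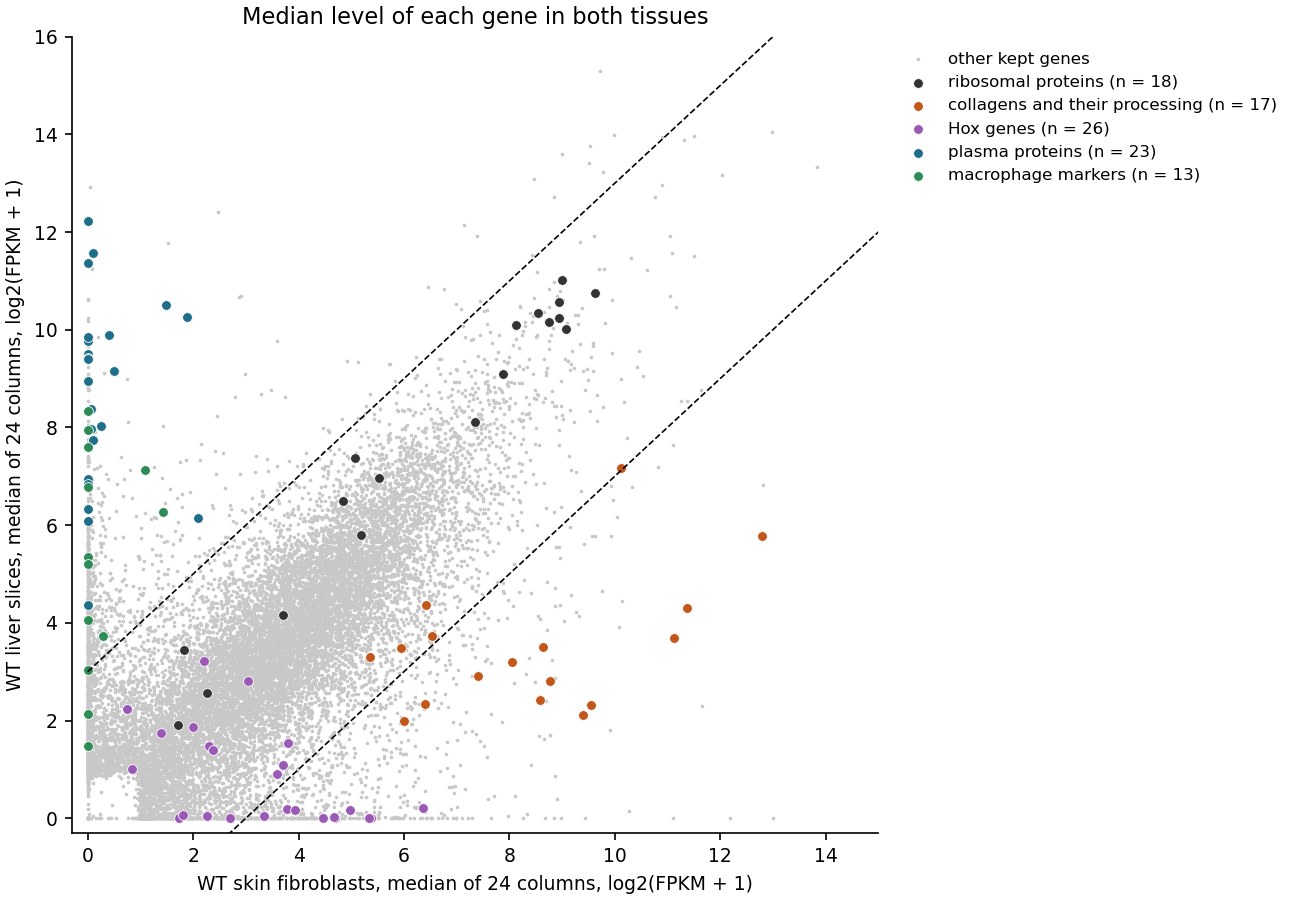
Median of 24 columns in WT liver slices (vertical axis) against WT skin fibroblasts (horizontal axis), both as log2(FPKM + 1), for 17028 genes, with dashed lines at a difference of 3. Plasma protein genes and most macrophage markers lie at the left edge, collagen genes lie toward the lower right, and ribosomal protein genes lie above the diagonal inside the dashed lines.

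Plasma protein genes had the lowest median difference of the 30 lists, -8.65. All 23 were called higher in slices, beside 4.65% of all genes. Alb, serum albumin, did not exceed 0.0176 FPKM in fibroblasts and was listed at 0 in 23 of 24 columns. In slices it had a median of 4791 and a highest value of 16839 FPKM, but it was listed at exactly 0 in the CT27 column, while the next lowest column was at 648 FPKM. Such a zero can be a failed estimate, and Alb was the one gene of the 23 whose columns overlapped between tissues. Apoa1, the main protein of high-density lipoprotein, ranged from 445 to 7944 FPKM in slices with a median of 3049, and from 0 to 0.262 FPKM in fibroblasts. Ahsg, the carrier protein fetuin-A, ranged from 310 to 7734 FPKM in slices with a median of 2651, and did not exceed 0.0311 FPKM in fibroblasts. Slice values of these genes were spread over a wide range, and fibroblast values lay at the floor of the scale. In 12 of the 23 genes the fibroblast median was 0, so no ratio is given for them. The 2 plasma protein genes best seen in fibroblasts were Itih2, of a hyaluronan-binding protein, and Hp, haptoglobin, with medians of 3.27 and 2.71 FPKM there, against 69.6 and 1222 FPKM in slices.

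**Figure D2:**
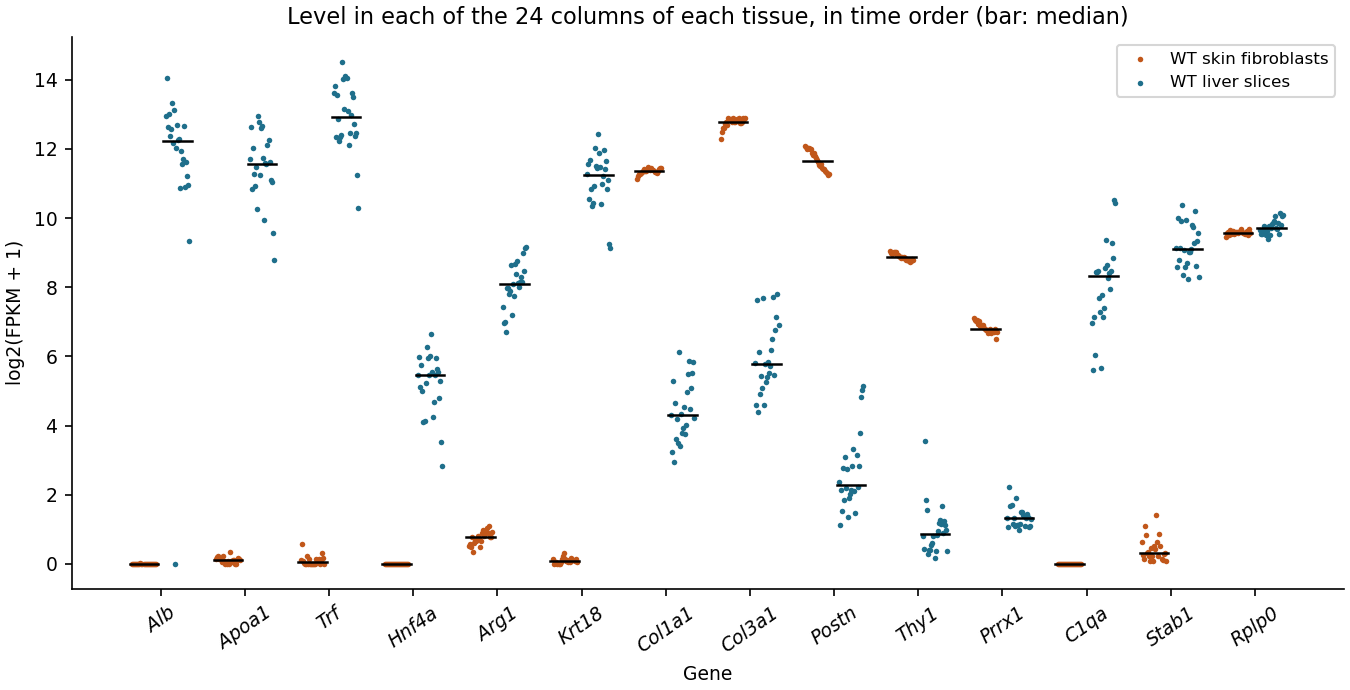
Level of 14 genes in each of the 24 columns of WT skin fibroblasts (orange) and WT liver slices (blue), as log2(FPKM + 1), with points in time order and a bar at the median. Alb has 1 slice column at 0, Rplp0 overlaps between tissues, and slice columns spread more widely than fibroblast columns for Col1a1, Col3a1 and Postn.

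Promoter windows are shown because the motif GTTAATNAT was found more often among genes higher in slices. Each window runs from 250 bases before to 50 bases after the start site in RefSeq (build GRCm38.p6), on the strand of the gene, with the motif in capitals. GTTAATNAT, searched on either strand, began 32 bases before the start site of Alb (chr5:90460620-90460919, plus strand), 52 bases before that of Gc, the vitamin D-binding protein (chr5:89457849-89458148, minus strand), and 46 bases before that of Fga, the fibrinogen alpha chain (chr3:83025903-83026202, plus strand). Postn, the matrix protein periostin of fibroblasts (chr3:54360857-54361156, plus strand), held no such match, and a TATA box, TATAAA, began 26 bases before its start site. Fga was chosen for display after its values were seen.
Alb: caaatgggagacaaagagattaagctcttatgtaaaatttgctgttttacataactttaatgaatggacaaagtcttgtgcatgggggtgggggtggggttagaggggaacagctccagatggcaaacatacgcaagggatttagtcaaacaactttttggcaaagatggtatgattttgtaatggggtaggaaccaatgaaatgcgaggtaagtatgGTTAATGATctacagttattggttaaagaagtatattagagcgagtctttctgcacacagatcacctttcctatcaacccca
Gc: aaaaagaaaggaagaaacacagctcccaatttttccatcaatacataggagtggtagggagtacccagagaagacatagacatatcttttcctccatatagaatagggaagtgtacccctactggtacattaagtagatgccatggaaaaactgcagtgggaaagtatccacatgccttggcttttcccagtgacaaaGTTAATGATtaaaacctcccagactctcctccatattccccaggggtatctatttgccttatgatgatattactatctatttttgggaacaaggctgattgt
Fga: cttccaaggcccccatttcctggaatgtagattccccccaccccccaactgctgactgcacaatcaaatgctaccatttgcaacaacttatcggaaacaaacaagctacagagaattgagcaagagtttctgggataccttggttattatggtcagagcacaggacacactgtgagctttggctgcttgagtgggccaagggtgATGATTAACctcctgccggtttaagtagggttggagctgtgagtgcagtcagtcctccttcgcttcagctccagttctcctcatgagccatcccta
Postn: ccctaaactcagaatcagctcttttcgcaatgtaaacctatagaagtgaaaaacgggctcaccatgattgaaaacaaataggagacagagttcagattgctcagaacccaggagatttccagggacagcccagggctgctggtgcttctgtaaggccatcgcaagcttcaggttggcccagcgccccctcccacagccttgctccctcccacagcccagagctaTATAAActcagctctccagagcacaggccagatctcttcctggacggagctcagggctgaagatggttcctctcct

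Of the genes called higher in slices 500 had a window under their symbol, and 19 of them (3.8%) held GTTAATNAT. The share was 0.654% of the 10548 kept genes with a window, 0.581% (2 of 344) of genes higher in fibroblasts, and 0.940% of all 27025 genes with a window. TATAAA on either strand was in 18.8% of genes higher in slices, in 16.6% of genes higher in fibroblasts, in 9.57% of kept genes and in 15.7% of all. The CArG box, bound by the serum response factor of contractile genes, was in 2.20%, 2.33%, 1.54% and 1.81% of the same 4 sets. These are matches of letters within 300 bases, given without a test.

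Transcription factors of the hepatocyte lineage were measured at far lower levels than the plasma proteins. Of 17 genes 16 were kept, 6 were called higher in slices, and 15 had all slice columns above all fibroblast columns. With 0.1 in place of the added 1, 15 of the 16 were called. Calls over the 17028 kept genes rose at that setting too, from 791 to 1683 higher in slices and from 648 to 1398 higher in fibroblasts. Counts below with a pseudocount of 0.1 stand beside these larger totals. Their median difference was -2.80. Hnf4a, which controls much of hepatocyte gene activity, was listed at 0 in every fibroblast column and ranged from 6.04 to 98.8 FPKM in slices with a median of 42.9. Creb3l3, a membrane-bound factor of fasting metabolism, had medians of 54.5 FPKM in slices and 0.180 FPKM in fibroblasts. Foxa2, a pioneer factor of endoderm, was listed at 0 in every WT fibroblast column, with a slice median of 16.04 FPKM. Onecut2 and Nr1i2 were called as well, with slice medians of 8.62 and 7.43 FPKM.

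Several factors known as central to the liver fell short of the size limit because their slice level was itself low. Foxa1 had a slice median of 5.57 FPKM, Foxa3 6.55, Nr5a2 4.79, Nr1h4 7.27, Prox1 2.69, Nr1i3 1.71 and Nr0b2 1.32 FPKM, and none of them had a fibroblast median above 0.0747 FPKM. Cebpa, which is also used in fat and myeloid cells, was the member best seen in fibroblasts, with 9.13 to 16.2 FPKM against 35.5 to 62.8 FPKM in slices. Ppara, the receptor that drives fat oxidation, overlapped, with 0.214 to 1.52 FPKM in fibroblasts and 0.110 to 24.4 FPKM in slices.

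Metabolic genes of the hepatocyte differed unevenly. In the urea cycle 2 of 8 genes were called, 4 with a pseudocount of 0.1 and 1 when scaled on ribosomal protein genes. Arg1, the enzyme that releases urea, had a median of 275 FPKM in slices (range 104 to 571) and 0.705 FPKM in fibroblasts. Nags, which makes the activator of the first step, had medians of 7.59 and 0 FPKM. Asl, a middle enzyme, was present on both sides, with 55.8 to 104 FPKM in slices and 16.7 to 26.8 FPKM in fibroblasts.

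Of 12 bile acid genes 11 were kept and 4 were called higher in slices, or 9 with a pseudocount of 0.1. Cyp27a1, of the alternative synthesis route, had medians of 40.1 FPKM in slices and 0.253 FPKM in fibroblasts. The conjugating enzyme Slc27a5 was at 30.1 FPKM in slices, the export pump Abcc2 at 21.3 FPKM and the uptake carrier Slc10a1 at 9.77 FPKM. Cyp7a1, the rate-limiting enzyme of the classic route, had a slice median of 0.123 FPKM and was not kept. Cyp7b1, an oxysterol hydroxylase, went against its list, with every fibroblast column (9.05 to 12.3 FPKM) above every slice column (0.694 to 7.65 FPKM).

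In gluconeogenesis 3 of 8 genes were called, or 5 with a pseudocount of 0.1: Fbp1 with a slice median of 62.95 FPKM, Pck1 with 15.2 and Tat with 10.3 FPKM, all 3 with a fibroblast median of 0. Pcx, pyruvate carboxylase, had medians of 17.5 FPKM in fibroblasts and 8.82 FPKM in slices, with overlap. In amino acid breakdown 8 of 15 genes were called, led by Gnmt, a glycine methyltransferase, at 95.3 FPKM in slices, and Hpd, of tyrosine breakdown, at 64.02 FPKM.

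Among drug-metabolizing genes 14 of 15 were kept and 8 were called. Gsta3, a glutathione transferase, ranged from 196 to 426 FPKM in slices with a median of 308, and did not exceed 0.135 FPKM in fibroblasts. Cyp3a11, the main cytochrome P450 of drug oxidation in mice, ranged from 8.15 to 999 FPKM in slices and was listed at 0 in every fibroblast column. Adh1, an alcohol dehydrogenase, was abundant on both sides, with medians of 117 FPKM in fibroblasts and 164 FPKM in slices. Aox3, an aldehyde oxidase, was higher in fibroblasts, with 5.88 to 10.5 FPKM against 0.321 to 3.04 FPKM.

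Epithelial keratins and junction genes separated the tissues as well, and 9 of 11 were called higher in slices. Krt18, a keratin of simple epithelia, ranged from 565 to 5552 FPKM in slices with a median of 2430, and did not exceed 0.234 FPKM in fibroblasts. Its partner Krt8 had medians of 698 and 0.0217 FPKM. The tight junction gene Cldn3 and the adherens junction gene Cdh1 had slice medians of 126 and 41.1 FPKM. Cldn1, another tight junction gene, was higher in fibroblasts, with 3.96 to 6.92 FPKM against 0.265 to 1.54 FPKM.

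Matrix genes formed the other side. All 17 genes for collagens and their processing had every fibroblast column above every slice column, and 12 were called higher in fibroblasts beside 3.81% of all genes. Col3a1, of type III collagen, ranged from 4997 to 7695 FPKM in fibroblasts with a median of 7092, and from 20.2 to 223 FPKM in slices with a median of 54.2. Col1a1, of type I collagen (GRCm38 chromosome 11, 94936224 to 94953042), ranged from 2228 to 2851 FPKM in fibroblasts with a median of 2632, and from 6.73 to 69.2 FPKM in slices. The 17 genes together held 1.72 to 2.27% of all deposited FPKM in a fibroblast column and 0.0123 to 0.0692% in a slice column. Serpinh1, the collagen chaperone, was less far apart, with medians of 1117 and 143 FPKM, a difference of 2.95.

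Of 17 other matrix genes 11 were called higher in fibroblasts. Postn ranged from 2441 to 4333 FPKM in fibroblasts with a median of 3207, and from 1.17 to 34.6 FPKM in slices with a median of 3.90. Bgn, the proteoglycan biglycan, had medians of 2202 and 199 FPKM. Sparc, a collagen-binding glycoprotein, and Fn1, fibronectin, were abundant in slices as well, at 434 and 141 FPKM, and differed by 2.87 and 2.91, just under the limit. Ccn2, a matricellular growth factor, went the other way, with 53.5 to 295 FPKM in slices and 19.7 to 31.2 FPKM in fibroblasts.

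Surface and cytoskeletal markers were called in 8 of 16. Thy1, a surface protein of fibroblasts, ranged from 426 to 523 FPKM in fibroblasts with a median of 465, and from 0.120 to 10.6 FPKM in slices. S100a4, a calcium-binding protein, had medians of 963 and 2.50 FPKM, while the related S100a6 had 2631 and 374 FPKM. Vim, the filament protein vimentin, overlapped, with 1402 to 1643 FPKM in fibroblasts and 114 to 1599 FPKM in slices.

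Among mesenchymal transcription factors 12 of 20 kept genes were called. Prrx1, a homeobox gene of limb and skin mesenchyme, ranged from 90.0 to 138 FPKM in fibroblasts and from 0.963 to 3.63 FPKM in slices. Prrx2, Zeb1 and Twist1 had fibroblast medians of 82.9, 73.8 and 66.4 FPKM. Tcf21, known from mesenchyme of inner organs, was listed at 0 in every fibroblast column and ranged from 2.09 to 7.71 FPKM in slices.

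Hox genes split by their position in the clusters. These homeobox genes lie in 4 clusters, and those with higher numbers act farther toward the tail of the embryo. Of 39 genes 26 were kept and 10 were called higher in fibroblasts, or 17 with a pseudocount of 0.1. Over all kept genes that pseudocount raised the calls higher in fibroblasts from 648 to 1398. In groups 6 to 10, 9 of 14 kept genes were called, the median difference was 4.12, and 12 of the 14 had a slice median under 1 FPKM. In groups 1 to 5, 1 of 12 kept genes was called (Hoxc5), with a median difference of 0.52. None of the 9 genes of groups 11 to 13 was kept. This grouping was chosen after the values were seen. Hoxc6 (chromosome 15, 102998257 to 103011881) was the highest, with 75.1 to 93.3 FPKM in fibroblasts, a median of 81.3, and 0 to 1.03 FPKM in slices. Hoxa9 ranged from 33.7 to 46.4 FPKM in fibroblasts, and Hoxc10 and Hoxb9 had medians of 39.3 and 30.6 FPKM there. In slices the medians of these 3 genes were 0, 0 and 0.120 FPKM. Hoxb4 was higher in slices, with 5.23 to 17.4 FPKM against 3.12 to 4.07 FPKM, and Hoxb2 had medians of 3.68 FPKM in slices and 0.666 FPKM in fibroblasts, with overlap.

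**Figure D3:**
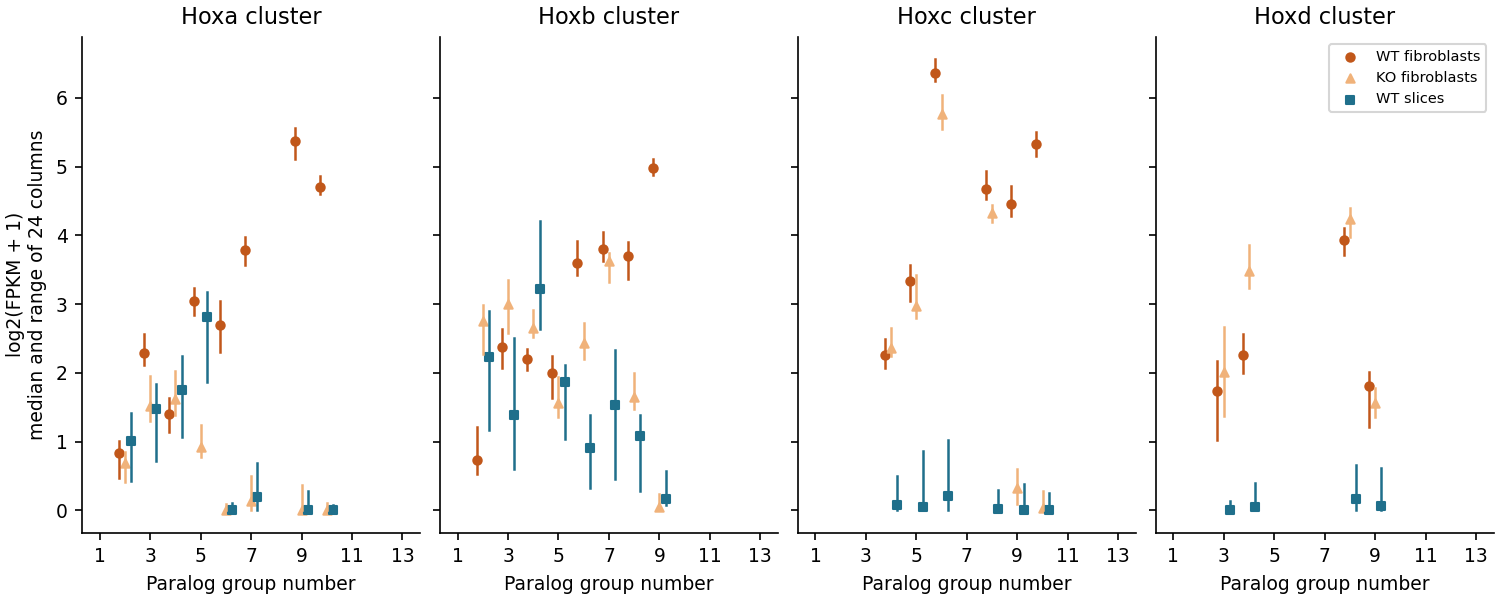
Median (symbol) and range (line) of 24 columns for the 26 kept Hox genes, as log2(FPKM + 1), by cluster and group number, in WT fibroblasts, KO fibroblasts and WT slices. WT slices show low-numbered genes of the Hoxa and Hoxb clusters and almost none of the Hoxc and Hoxd clusters, and KO fibroblasts lie near 0 for Hoxa6, Hoxa7, Hoxa9, Hoxa10, Hoxb9, Hoxc9 and Hoxc10.

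Of 14 kept contractile genes 4 were called higher in fibroblasts and 1, the muscle filament gene Des, higher in slices at 8.83 against 0.0583 FPKM. Scaled on ribosomal protein genes, 8 were called higher in fibroblasts and none in slices. Acta2, smooth muscle actin, ranged from 238 to 311 FPKM in fibroblasts and from 0.594 to 17.7 FPKM in slices. Tpm1, a tropomyosin, was nearer, with medians of 596 and 277 FPKM. Tagln2, of the transgelin family, was higher in slices, with 188 to 507 FPKM against 85.0 to 117 FPKM.

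Cell division genes were higher in fibroblasts in 10 of 24, although the cultures are labelled as confluent, and the median difference was 2.85. Top2a, the topoisomerase of dividing cells, ranged from 57.1 to 75.3 FPKM in fibroblasts and from 0.280 to 5.92 FPKM in slices. Cdk1, the mitotic kinase, and Mcm2, of the replicative helicase, had fibroblast medians of 77.2 and 88.7 FPKM and slice medians of 3.35 and 7.01 FPKM. The replication clamp Pcna and the helicase subunit Mcm7 differed little, with fibroblast medians of 23 and 20.7 FPKM and slice medians of 22.8 and 19.6 FPKM. Scaled on ribosomal protein genes, 17 of the 24 would be called.

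Isoenzyme families were listed with a liver form beside a form of other tissues. The assignment is that of the lists, also for Acacb and Acaca, and was not tested. Of 14 liver members 8 were called higher in slices, with a median difference of -4.09. Of 17 kept members of other tissues 1 was called, also higher in slices, and their median difference of -0.56 turned to 0.42 when scaled on ribosomal protein genes. Aldoa, the muscle aldolase, ranged from 543 to 919 FPKM in slices and from 303 to 361 FPKM in fibroblasts. Of the pyruvate kinases Pklr, the liver form, had medians of 16.5 FPKM in slices and 0 in fibroblasts, and Pkm had 355 and 331 FPKM with overlap and a sign that changed when scaled on ribosomal protein genes or taken as deposited. The slices thus held more of Pkm per length than of the liver form. Of the glucose carriers Slc2a2 had medians of 5.19 FPKM in slices and 0.0493 FPKM in fibroblasts, and Slc2a1 had 67.8 and 45.6 FPKM, with a sign that changed when scaled on ribosomal protein genes.

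Fabp1, the fatty acid-binding protein of liver, ranged from 144 to 1807 FPKM in slices with a median of 501, and was listed at 0 in every fibroblast column. Fabp4, the form of fat cells and capillary endothelium, was the exception among the members of other tissues, with 346 to 1672 FPKM in slices and 0.219 to 1.24 FPKM in fibroblasts. Of the remaining liver members Fbp1, Pygl, Gys2, Khk and Mat1a differed by -6.00, -4.58, -4.20, -4.15 and -4.05. Gls2, the liver glutaminase, had a slice median of 13.3 FPKM and overlapped with fibroblasts. Pfkl, Acacb and Pfkfb1 overlapped too, with differences of 0.64, 0.58 and -0.20.

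Every fibroblast column was above every slice column for 4 of the 17 members of other tissues. The reverse held for 6, and the shares of all genes were 23% and 23.9%. On the fibroblast side without overlap Acaca, the carboxylase of fatty acid synthesis, had medians of 17.97 FPKM in fibroblasts and 1.87 FPKM in slices. Pygb, the brain glycogen phosphorylase, differed by 2.096 and the phosphofructokinase Pfkm by 1.86. On the slice side without overlap stood Pygm, Aldoc and Hk2, with differences of -2.48, -1.37 and -1.09. The columns of Hk1, Gys1, Mat2a, Fabp5, Pfkfb3 and Pfkp overlapped.

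**Figure D4:**
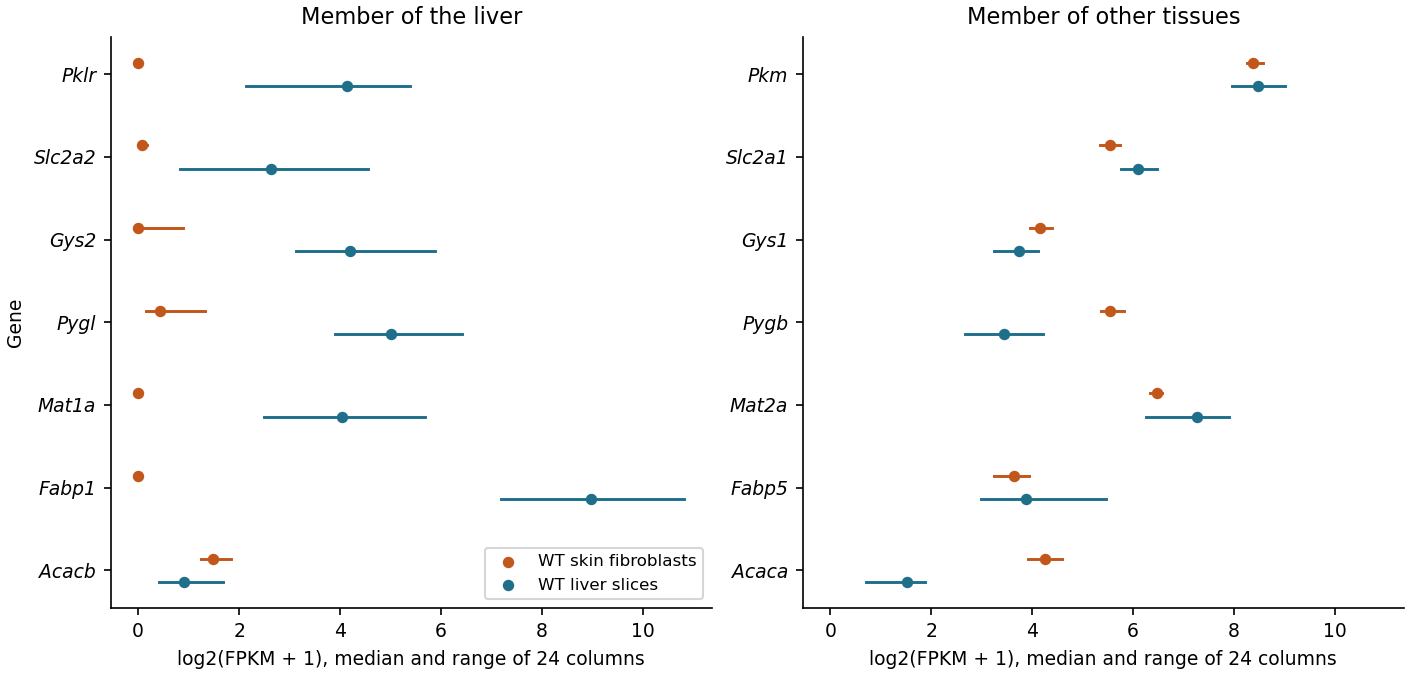
Median (point) and range (line) of 24 columns for 7 pairs of related genes, as log2(FPKM + 1). Members listed as liver forms are on the left, and members listed under other tissues are on the right. Medians of Pklr, Slc2a2, Gys2, Mat1a and Fabp1 are near 0 in WT fibroblasts, while ranges of Pkm, Gys1, Mat2a and Fabp5 overlap between tissues.

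Genes of the other liver cells were measured in the slices as well. In whole tissue, fewer cells of a type and less RNA per cell cannot be told apart. Macrophage markers were called higher in slices in 11 of 13 kept genes, with a median difference of -5.19, and 10 of the 13 had a fibroblast median of 0. C1qa, a chain of complement C1q made by macrophages (chromosome 4, 136895917 to 136898803), ranged from 48.1 to 1477 FPKM in slices with a median of 322. C1qb and C1qc had slice medians of 247 and 194 FPKM, and all 3 chains were listed at 0 in every fibroblast column.

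Endothelial genes were called in 8 of 12. Stab1, a scavenger receptor of liver sinusoids, ranged from 299.9 to 1334 FPKM in slices with a median of 555, and from 0.0522 to 1.68 FPKM in fibroblasts. Egfl7, secreted by endothelium, had medians of 542 and 6.93 FPKM, and Cdh5, the cadherin of endothelial junctions, 79.0 and 0.0495 FPKM. Eng, a co-receptor of TGF-beta, overlapped, with medians of 60.7 and 56.4 FPKM. Bile duct genes were called in 4 of 7, with Krt19 at 65.2 against 6.07 FPKM and Krt7 at 46.8 against 0 FPKM. Spp1, osteopontin, was high on both sides, with 304 to 6179 FPKM in slices and 550 to 828 FPKM in fibroblasts. Of 10 stellate cell genes Dcn, Pdgfrb and Ngfr were called higher in fibroblasts, which also use them, and Des higher in slices. The call of Des was lost when scaled on ribosomal protein genes. Every slice column was above every fibroblast column for 6 of the 10, and the reverse held for 4, beside 23.9% and 23% of all genes. The median difference of -0.80 turned to 0.08, with 9 genes kept, when scaled on ribosomal protein genes.

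Markers of other skin cells were few in the fibroblasts. Of 12 genes of keratinocytes and pigment cells 5 were kept. Trp63, a transcription factor of stratified epithelium, was called higher in fibroblasts, with 7.36 to 12.4 FPKM against at most 0.193 FPKM, while the epidermal keratins Krt5 and Krt14 had fibroblast medians of 0 and 0.0872 FPKM. Ivl, a protein of the epidermal envelope, was called higher in slices, with 9.09 to 234 FPKM against at most 0.0372 FPKM. Tnmd, a tendon membrane protein, ranged from 148 to 259 FPKM in fibroblasts and was listed at 0 in every slice column.

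Of 19 kept clock genes 1 was called higher in slices and none higher in fibroblasts, beside 4.65% and 3.81% of all genes. Every fibroblast column was above every slice column for 5 of the 19, and the reverse held for 3, beside 23% and 23.9% of all genes. Scaled on ribosomal protein genes, none was called higher in slices and 1 higher in fibroblasts. Arntl and its partner Clock were higher in fibroblasts without overlap, by 0.94 and 1.17. For Arntl the lowest fibroblast column was barely above the highest slice column, a gap that depends on the scaling. Tef and Hlf, output factors of the PAR bZIP family, were higher in fibroblasts by 2.098 and 2.29 without overlap, and the related Dbp differed by 0.43 with overlap. Per3 was higher in fibroblasts by 0.89 without overlap. Cry1 and Bhlhe40 were higher in slices without overlap, by -0.60 and -0.88 as coded, and changed sign when scaled on ribosomal protein genes. The columns of Per1, Per2, Cry2, Nr1d1, Nr1d2, Rora, Npas2, Nfil3, Bhlhe41 and Ciart overlapped.

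None of 9 kept genes of glucocorticoid action was called. Hsd11b1, which regenerates active glucocorticoid, had 42.2 to 326 FPKM in slices and 2.79 to 19.3 FPKM in fibroblasts. Dusp1, a phosphatase induced by glucocorticoids, had 64.5 to 166 FPKM in slices and 14.5 to 27.2 FPKM in fibroblasts.

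Of 20 genes used in most cells none was called, and their median difference of -0.38 turned to 0.48 when scaled on ribosomal protein genes. Actb, cytoplasmic actin, ranged from 5904 to 13569 FPKM in slices and from 3452 to 5025 FPKM in fibroblasts. None of 18 ribosomal protein genes was called, but 14 had every slice column above every fibroblast column, with a median difference of -1.35 over the 18. Gapdh, usually among the most abundant messages, was listed at medians of 5.40 FPKM in fibroblasts and 7.22 FPKM in slices, and Rps6 at 2.29 and 2.73 FPKM. Such genes have many near-identical copies in the genome, how shared reads were counted is not given in the sources used here, and their levels are uncertain. Eif2s3y and Ddx3y, of the Y chromosome, were present in both tissues, with overlap.

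The 10 largest differences on the fibroblast side (medians of 20 FPKM or more in the higher tissue, gene models known only by number passed over) ran from 12.19 to 8.11: Scarna9, Apod, Scarna17, Postn, Crabp1, Ptn, Thbs2, Mir1905, Mfap5 and S100a4. Apod, a secreted lipocalin (chromosome 16, 31296192 to 31314808), ranged from 1001 to 1587 FPKM in fibroblasts and from 0 to 3.33 FPKM in slices. Crabp1, a retinoic acid-binding protein, and Ptn, the growth factor pleiotrophin, had fibroblast medians of 459 and 407 FPKM and slice medians of 0. Scarna9, Scarna17 and Mir1905 have exon lengths of 70, 79 and 82 bases, little more than a read of 50 bases, and FPKM of such genes depend strongly on the length correction. Exons summed to under 300 bases in 20.2% of genes called higher in fibroblasts, in 9.48% of those called higher in slices and in 10.5% of all kept genes.

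On the slice side the 10 were Trf, Alb, Apoa1, Ahsg, Krt18, Mup3, Apoc1, Gc, Clu and Apoc2, from -12.87 to -10.17. Trf, the iron carrier transferrin (chromosome 9, 103204001 to 103230444), ranged from 1256 to 23494 FPKM in slices with a median of 7733, and from 0 to 0.494 FPKM in fibroblasts. Clu, the extracellular chaperone clusterin, ranged from 1219 to 8501 FPKM in slices and from 1.13 to 3.24 FPKM in fibroblasts. Apoc2, which activates lipoprotein lipase, was listed at 0 in every fibroblast column. Mup3 belongs to a family of near-identical urinary protein genes, so its slice median of 1595 FPKM is uncertain.

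The same comparison in the Bmal1-/- columns called 600 of 16941 genes (3.54%) higher in fibroblasts and 746 (4.4%) higher in slices. Of the 648 genes higher in WT fibroblasts 359 were also called in KO, which is 55.4% of the WT list and 59.8% of the KO list. On the slice side 537 were called in both, 67.9% of the WT list and 72% of the KO list. Opposite signs were found for 12 of 604 genes of the fibroblast side and 8 of 791 of the slice side. Over the 15894 genes kept in both, the 2 differences correlated at 0.864, given as a description across genes, which share the columns they come from.

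Several genes that set WT fibroblasts apart from liver differed with the genotype of the culture. Within fibroblasts, at an adjusted p below 0.05 in limma and a difference of at least 1, KO was higher for 1057 of 15150 genes (6.98%) and lower for 1357 (8.96%). Of the 14 kept Hox genes of groups 6 to 10, 8 were lower in KO and 7 had a KO median under 1 FPKM. Hoxa9 did not exceed 0.291 FPKM in KO fibroblasts, a difference from WT of -5.39 ± 0.03 (SE; limma adjusted p = 3.0e-63). Hoxc6 stayed at 45.8 to 64.8 FPKM in KO. Crabp1 had a KO median of 2.43 FPKM, a difference of -6.98 ± 0.11 (adjusted p = 1.4e-43), and Tnmd one of 0.481 FPKM, a difference of -7.05 ± 0.04 (adjusted p = 2.5e-60). Ptn was higher in KO by 2.67 ± 0.05 (adjusted p = 2.2e-40). Of 24 cell division genes 23 were lower in KO fibroblasts, and 2 of 23 kept genes were called higher in KO fibroblasts than in KO slices. Top2a had 6.27 to 17.99 FPKM in KO fibroblasts. The labels do not say whether the WT and KO cultures came from the same region of skin, and genotype and culture cannot be told apart.

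A few genes of the slice side were present in KO fibroblasts. Trf, at most 0.494 FPKM in WT, ranged from 75.6 to 98.3 FPKM in KO fibroblasts, a difference of 6.66 ± 0.04 (limma adjusted p = 2.4e-62). Foxa2 ranged from 6.64 to 10.98 FPKM in KO fibroblasts, a difference of 3.43 ± 0.03 (adjusted p = 2.7e-54), whereas Hnf4a did not exceed 0.0143 FPKM there. Krt19 had a KO fibroblast median of 62.95 FPKM, so that its tissue difference was -3.23 in WT and -0.23 in KO. Eng and Spp1 had fibroblast medians of 56.4 and 627 FPKM in WT and of 0.457 and 12.2 FPKM in KO, and differed by -5.24 ± 0.04 and -5.35 ± 0.04 (adjusted p = 4.7e-57 and 3.7e-56).

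Within slices, KO was higher for 308 of 14574 genes (2.11%) and lower for 211 (1.45%), and with values as deposited for 172 and 589. Of 23 plasma protein genes 12 were higher in KO slices and none lower, and of 13 macrophage genes 10 were lower and none higher. These list counts are for the rescaled values only. Each genotype has 1 course of slices, so genotype and slice preparation cannot be told apart, and p-values measure the spread between times. C1qa ranged from 9.07 to 148 FPKM in KO slices, a difference of -2.31 ± 0.30 (limma adjusted p = 3.0e-08). Col3a1 had a median of 4.02 FPKM in KO slices, a difference of -2.79 ± 0.43 (adjusted p = 7.8e-07), so that its tissue difference was 7.01 in WT and 10.8 in KO. The part of each cell type in the genotype difference of the others was not tested. The clock gene Nr1d1, a direct target of BMAL1, was lower in KO in both tissues, with medians of 11.8 and 3.81 FPKM in fibroblasts and 16.1 and 4.07 FPKM in slices (limma adjusted p = 7.3e-29 and 4.9e-19).

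Change over the 3 days was tested within each tissue as a linear slope beside 24 h terms, and called at an adjusted p below 0.05 in limma and at least 0.25 per day on the log2 scale. In WT fibroblasts 223 of 14564 genes (1.53%) rose and 217 (1.49%) fell. In WT slices 756 of 14843 (5.09%) rose and 610 (4.11%) fell. The slice counts depend on the last day: without CT66 and CT69 344 rose and 300 fell. Without the third day 0 rose and 2 fell in limma, with 471 and 656 at an unadjusted p below 0.05 and the same size. Each course has 1 value per time, so its drift has no separate replicate.

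In slices 11 of 23 plasma protein genes fell and none rose, and 10 fell without CT66 and CT69. For day 3 against day 1 the count was 10 as well, and without the third day it was 0. Apoh, a phospholipid-binding plasma protein, fell by 1.04 ± 0.17 per day (limma adjusted p = 4.1e-04), and Serpinc1, antithrombin, fell by 0.99 ± 0.17 (adjusted p = 4.7e-04). The summed FPKM of the 23 genes had medians of 23580 on day 1, 28502 on day 2 and 15719 on day 3, with 6390 at CT66 and 2671 at CT69. Arg1 rose, by 0.52 ± 0.09 per day (adjusted p = 5.1e-04).

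All 13 macrophage genes tested rose in slices, and 11 rose without CT66 and CT69. For day 3 against day 1 the count was 7, and without the third day it was 0. Lyz2, a lysozyme of phagocytes, rose by 1.38 ± 0.18 per day (limma adjusted p = 1.0e-04), the scavenger receptor Marco by 1.32 ± 0.23 (adjusted p = 6.1e-04) and the secreted protein Cd5l by 1.11 ± 0.16 (adjusted p = 2.1e-04). The summed FPKM of the list ranged from 326 to 1388 on day 1 and from 1025 to 7493 on day 3, with the highest values at CT66 and CT69. Of 6 red cell and neutrophil genes 4 fell, all of them globins, whose near-identical copies make single values uncertain. That count was 4 without CT66 and CT69 and 0 without the third day. Hbb-bs fell by 1.56 ± 0.22 per day, Hba-a2 by 1.39 ± 0.20 and Hba-a1 by 1.25 ± 0.23 (adjusted p = 2.2e-04, 2.2e-04 and 8.0e-04). The part of other cell types in the slopes of hepatocyte genes was not tested.

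Some genes of the fibroblast side were called as rising in slices, and these calls depend on the last day. Of 17 collagen list genes 7 rose and none fell, but 1 rose without CT66 and CT69, and of 15 other matrix genes 7 rose, or 5 without these columns. Postn rose by 0.71 ± 0.17 per day and Sparc by 0.42 ± 0.09 (limma adjusted p = 0.0061 and 0.0027). Of the 648 genes called higher in WT fibroblasts 357 were tested in slices, where 51 rose and 5 fell, or 17 and 2 without these columns. Of the 791 genes called higher in slices 123 rose and 160 fell there, or 62 and 93 without these columns. Without the third day 0 rose and 0 fell in either set. Both sets were called from medians of these same slice columns, and a slope needed a slice mean of 1 FPKM or more. The counts are therefore a description of selected genes.

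**Figure D5:**
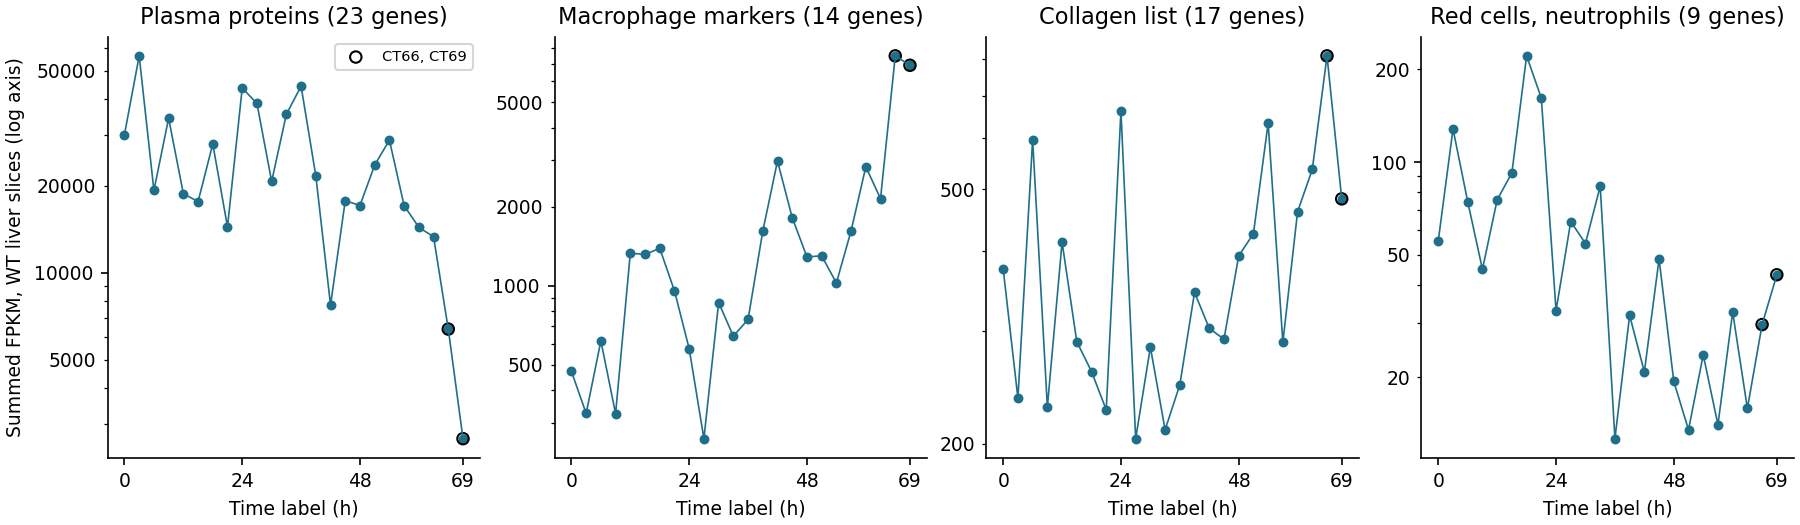
Summed FPKM of 4 gene lists in each WT slice column (log axis) against the time label in h, with CT66 and CT69 circled. Plasma proteins are lowest in CT69, at 2671, macrophage markers are highest in CT66 and CT69, at 7493 and 6901, and red cell and neutrophil sums of the third day lie below those of the first.

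In fibroblasts Hsd11b1 rose by 0.75 ± 0.05 per day, the tendon factor Scx by 0.40 ± 0.04 and Kdr, a VEGF receptor, by 0.36 ± 0.03 (limma adjusted p = 4.8e-11, 1.8e-07 and 2.5e-09). The calponin gene Cnn1 fell by 0.41 ± 0.03, Hp by 0.40 ± 0.05 and Hgf, hepatocyte growth factor, by 0.40 ± 0.02 (adjusted p = 1.4e-10, 3.0e-07 and 2.4e-12). Postn fell by 0.31 ± 0.01 per day in fibroblasts, where it rose in slices, and its 24 columns still did not overlap between tissues.

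In the shorter liver course, whose table was normalized on its own, values are as deposited. In its 12 WT columns Fabp1 ranged from 1725 to 11520 FPKM and Slc2a2 from 22.03 to 213 FPKM. Pkm ranged from 2.29 to 68.2 FPKM there, Krt18 from 97.1 to 694 and C1qa from 25.9 to 82.1 FPKM. Beside the deposited medians of the WT slices, medians of the shorter course were higher for 23 of 23 plasma protein genes and 13 of 14 liver isoenzymes. They were higher for 3 of 17 isoenzymes of other tissues, 2 of 13 macrophage genes, 0 of 17 collagen list genes and 1 of 18 ribosomal protein genes. Counts were 11 of 16 for hepatocyte factors and 2 of 20 for genes used in most cells. Endothelial and cell division genes had 2 of 12 and 1 of 24. The share over all genes is not given, and the counts ran from 23 of 23 to 0 of 17 between lists. Each course has its own table, so table and course cannot be told apart. How far an offset between the tables enters each count was not tested.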

How the data were processed

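Messenger RNA was selected by its poly(A) tail, and stranded libraries were read from 1 end for 50 bases, per the labels' protocols. The submitters' processing notes name TopHat2 2.1.0, Cuffdiff and the build GRCm38. The deposited tables hold FPKM per gene as the authors computed them. The long courses have 1 column per time and genotype, while the labels list 3 runs and state 3 samples for each, and whether a column pools cultures is not given in the sources used here. Of the fibroblast table, 96 columns of other values were not used.

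The 47625 gene identifiers shared by the tables were joined, and 47215 had a symbol. The 48 WT columns were rescaled together by median-of-ratios factors (1.06 to 1.08 in fibroblasts, 0.914 to 0.952 in slices) and analysed as log2(FPKM + 1). Depth is unknown, so no counting interval is given. Drift and genotype were fitted with limma 3.58.1 in R 4.3.3, with a variance trend and Benjamini-Hochberg adjustment over all genes tested. Fits were tested on simulated data drawn independently for each column. That run held no dependence between successive times and no outlying columns, so it does not check the p-values against these. P-values measure the spread between times of 1 course. Coordinates and exon lengths are from GENCODE on GRCm38. The 30 gene lists and the members were chosen with earlier results of these data known. Genes were named by a rule: the 10 largest differences per direction, up to 4 of the most abundant members of each list, members going against their list by at least 2-fold, all kept isoenzyme, clock and hepatocyte factor genes, and the 3 steepest slopes per direction and tissue. Other genes named were chosen after their values were seen. Some genes chosen by the rule were left out of the text. Alternatives were other pseudocounts, filters, scalings, size limits and subsets of columns, of which leaving out single days in the drift fits and taking zeros as missing were added after the data were seen.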

Additional observations from a re-analysis of the deposited data

How the results depend on the processing

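The tissue counts moved by more than 1.5 times with the size limit, the pseudocount and scaling on ribosomal protein genes. At 4-fold 1433 genes were higher in fibroblasts and 1558 in slices, and at 16-fold 312 and 441. With a pseudocount of 0.1 the counts were 1398 and 1683, and 1323 and 1737 in the KO columns. Scaling on ribosomal protein genes gave 1146 on the fibroblast side. No named gene that was called changed sign in any alternative run. Called genes differ by at least 3, and scaling on ribosomal protein genes moved the median difference by 0.71. A sign change was thus hardly possible, and its absence is no check of the calls. Without a size limit 2159 genes rose and 2382 fell in fibroblasts, and 1489 and 1476 in slices. Without a size limit KO was higher for 6208 and lower for 6058 genes in fibroblasts, and for 3641 and 3446 in slices. Leaving out the third day gave 364 falling genes in fibroblasts, and 0 rising and 2 falling in slices. Without CT66 and CT69 344 rose and 300 fell in slices, and day 3 against day 1 gave 388 rising. Genotype counts in slices were 172 and 589 with values as deposited, and 500 and 408 with a pseudocount of 0.1. With the time as a replicate block, 1059 and 1358 genes were called in fibroblasts and 309 and 213 in slices, and it moved no count by over 1.5 times. Columns of the same time label share only that label: their deviations correlated from -0.043 to 0.056 in fibroblasts and from -0.143 to 0.194 in slices.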
